A study of Mus musculus with 14 samples.

Results

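GABAergic amacrine cells are the inhibitory interneurons of the inner retina that release GABA onto bipolar cells, ganglion cells and other amacrine cells. The nuclei described here are those that the authors labeled GABA_AC in their retina data, 6894 of 77676 nuclei (8.88%), and measured values had no part in their choice here. The deposited data come from single nuclei of whole mouse retina, captured with PIPseq and counted as unique molecular identifiers (UMIs), 1 per captured transcript. The question of the comparison is what loss of a TGF-beta receptor from the vessel lining does to the retina around it. For each library, the UMIs of its GABA_AC nuclei were summed and compared between the genotypes, with libraries and not nuclei as replicates.

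The mutant (CKO) retinas came from *Cdh5CreER;Tgfbr1 CKO/-* mice, called VEcadCreER in the labels, that received 4-hydroxytamoxifen between postnatal days 3 and 5. These mice carried 1 floxed and 1 null allele of *Tgfbr1*. The *Cdh5* promoter drives Cre in endothelial cells, so amacrine cells were not a target of the deletion, but every cell of these mice had the null allele. The control retinas were wild type by their label. For the control retinas of its tissue sections the paper names a wild-type phenotype and, as a rule, *Cdh5CreER* with 1 floxed and 1 intact receptor allele. Whether this holds for the control library here is not given. The study design names 4-hydroxytamoxifen for the mutant mice, and the sources used here do not give whether controls received 4-hydroxytamoxifen, or how many mice stand behind a library. The retinas were taken at postnatal day 14, while the labels speak of young adults. There was 1 control library and there were 11 CKO libraries, in 3 batches of the authors. The control shared batch 1 and the v4PLUS kit with CKO 1 to 3, CKO 4 and 5 formed batch 2, and CKO 6 to 11 formed batch 3, of which CKO 8 to 11 were made with the v5 kit.

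In the retina, amacrine cells shape the timing, contrast and motion sensitivity of ganglion cell output. Most of them use either GABA, made by glutamate decarboxylase, or glycine as their transmitter. The GABAergic group holds many subtypes, among them the starburst cells that also release acetylcholine and cells that carry neuropeptides or dopamine.

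Several libraries stood apart before any genotype comparison. CKO 4 held 9 GABA_AC nuclei and was left out of all tests of genes. These tests therefore used the control and 10 CKO libraries, which together held 6885 of the nuclei (99.9%). The control had 993 GABA_AC nuclei with 5547180 UMIs and a median of 4722 UMIs per nucleus. Nuclei numbered from 209 to 1614 in the fitted CKO libraries (median 428), where the median depth per nucleus was between 2549.5 and 11894.5 UMIs. The highest depths, from 8389 to 11894.5, were those of the v5 libraries CKO 8 to 11, and the CKO libraries of batch 1 lay between 3609.5 and 5520. With the batch in the fit, each log2 difference was set by the control and CKO 1 to 3. The libraries of batch 3 added only to the estimate of the spread. CKO 5 was the only fitted library of batch 2, so the batch in the fit took up its values. It added neither to the log2 differences nor to the spread.

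The libraries also differed in sex-linked RNA. *Xist*, the RNA of the inactive X chromosome, was at 6891 CPM, its UMIs per 1000000 UMIs of the GABA_AC nuclei of the library, in the control and between 5258 and 6775 CPM in CKO 1, 2 and 7. In the other 7 CKO libraries it was between 0 and 7.90 CPM. The Y chromosome gene *Uty* was at 1.44 CPM in the control, between 0.451 and 1.70 CPM in CKO 1, 2 and 7, and between 210 and 277 CPM in the rest. Genes were tested with edgeR's quasi-likelihood test with Benjamini-Hochberg adjustment and called at an adjusted p under 0.05, which 0.00711% of 14060 genes reached as lower and 0% as higher in the CKO libraries. The 6 sex-linked genes had a median log2 difference, CKO minus control, of 3.73 with 0 called by edgeR or DESeq2 and 0 at an unadjusted p under 0.05, and 1 of the 6, *Xist*, was higher in the control than in all 10 CKO libraries, beside 3.29% over all genes. The single control library thus resembled 3 CKO libraries in these genes, of which CKO 1 and 2 shared its batch, and not the other 7.

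*Tgfbr1*, the gene that was targeted, codes for the type I TGF-beta receptor and lies on chromosome 4 (GRCm39, 47353134 to 47414931). In GABA_AC nuclei it was at 50.7 CPM in the control and at 40.7, 49.3 and 67.2 CPM in the lowest, median and highest CKO library. The control lay inside the CKO range, above 5 and below 5 of the 10 libraries. The log2 difference was -0.03, with a 95% interval from -0.57 to 0.51. UMIs were counted per gene from the 3′ end, so this value does not test the deletion. The sign of this small difference turned to 0.12 without CKO 1, 0.05 without CKO 3 and 0.06 with each nucleus thinned to 1000 UMIs.

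The label was checked against marker genes first. *Gad1* and *Gad2*, which code for both forms of glutamate decarboxylase, were at 201 and 127 CPM in the control's GABA_AC nuclei. In the control's glycinergic amacrine nuclei (Gly_AC) *Gad1* was at 4.81 CPM and *Gad2* at 49.5 CPM, and in rods both were at 0. *Tfap2a*, an AP-2 transcription factor of amacrine cells, was at 227 CPM against 66.5 CPM in Gly_AC nuclei. Its relative *Tfap2b* was at 520 CPM and was also found in Gly_AC nuclei, at 320 CPM, and in horizontal cells, at 549 CPM. *Pax6*, the homeodomain factor kept by amacrine cells, Müller glia and ganglion cells, was at 611 CPM, with 833 CPM in Müller glia. The reuptake transporter of glycine, *Slc6a9*, was at 13.7 CPM in GABA_AC and 171 CPM in Gly_AC nuclei. *Slc6a5*, the other glycine transporter, did not separate the amacrine labels, with 62.0 and 74.9 CPM. *Chat*, which makes acetylcholine in starburst cells, was at 83.8 CPM in GABA_AC, 0.57 CPM in Gly_AC and 0.41 CPM in ganglion cell nuclei. The markers therefore carried the label, with *Gad1*, *Chat* and *Slc6a9* as the genes that set GABA_AC nuclei apart from Gly_AC nuclei in the control.

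All 8 markers of GABAergic amacrine cells were tested, with 0 called by edgeR or DESeq2, 0 at an unadjusted p under 0.05 and a median log2 difference of -0.10. The log2 difference was positive for 1 of the 8, beside 7254 of 14060 over all genes. *Gad1* was at 201 CPM in the control and at 156, 192 and 293 CPM in the lowest, median and highest CKO library, and *Gad2* at 127 CPM against 91.2, 123 and 156 CPM. For both, the control lay inside the CKO range. The log2 differences were -0.10 for each, with intervals from -0.59 to 0.39 and from -0.54 to 0.34, and that of *Gad2* turned to 2.82 in starburst-like nuclei only, an alternative chosen after seeing the data. *Tfap2a* was at 227 CPM against 140, 184 and 268 CPM, with a log2 difference of -0.33 (-0.79 to 0.14). It was below the control in 9 of 10 CKO libraries, and CKO 5 held the highest value. *Tfap2b* was at 520 CPM against 381, 471 and 689 CPM, and *Pax6* at 611 CPM against 483, 584 and 698 CPM, with log2 differences of -0.17 (-0.63 to 0.29) and -0.06 (-0.41 to 0.30, turned to 0.16 in starburst-like nuclei only). The homeobox gene *Meis2* was also within the CKO range, at 1349 CPM against 989, 1210 and 1609 CPM. The vesicular GABA transporter *Slc32a1* had few UMIs, at 17.3 CPM against 4.96, 18.2 and 38.7 CPM. The intervals of 7 of the 8 genes lay within 1 log2 unit of 0.

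**Figure D1:**
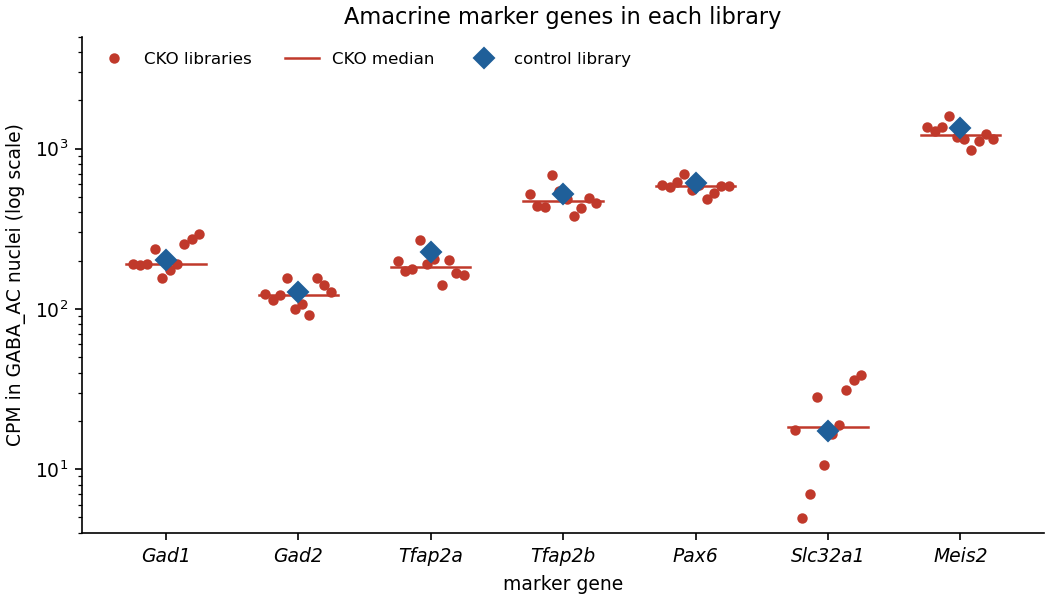
CPM of 7 marker genes (log scale) in GABA_AC nuclei of the control library (diamond) and the 10 fitted CKO libraries (points, with their median as a line). The control lay inside the CKO range for each marker, for example *Gad1* at 201 CPM against 156 to 293 CPM.

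RNA of other retinal cells was present in the GABA_AC sums and was read from 10 lists of marker genes. From most lists the most abundant gene is named, and further genes were chosen after their values were seen. Each fit was repeated under alternatives, such as leaving a library out, and where the sign of a median turned under one of them this is said beside it. The 10 rod markers summed to 3184 CPM in the control and to 1679, 3304 and 5121 CPM in the lowest, median and highest CKO library. *Sag*, the rod arrestin, was the most abundant of them at 1317 CPM. All rod markers were tested, with a median log2 difference of 0.17 (-0.02 without CKO 2). *Rp1*, of the rod outer segment, alone reached an unadjusted p under 0.05 (445 CPM against 243, 607 and 777 CPM, log2 difference 0.53, p = 0.029). The 10 cone markers summed to 717 CPM against 630, 916 and 1079 CPM, led by *Thrb* at 504 CPM, and 10 of 10 had a positive log2 difference, beside 7254 of 14060 over all genes, with a median of 0.57 that kept its sign. Rod bipolar markers (7 of 8 tested) summed to 1218 CPM against 945, 1240 and 1831 CPM, led by *Prkca* at 1036 CPM, with a median of 0.33 (-0.32 in starburst-like nuclei only). Cone bipolar markers (10 of 10 tested) summed to 864 CPM against 719, 934 and 1070 CPM, led by *Grik1* at 445 CPM. Their median of 0.45 kept its sign. It ranged from 0.21 to 1.55 over all alternatives, and that of cone markers from 0.35 to 0.92. *Thrb*, *Prkca* and *Grik1* are not limited to these cells, so the sums are upper values for RNA of other types. Called genes numbered 0 in each of these lists, and their part in the results was not tested.

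Glia, immune, vascular and other neuronal markers were read in the same way. The 11 markers of Müller glia summed to 215 CPM in the control and to 175, 253 and 329 CPM in the CKO libraries, led by *Dkk3* at 94.5 CPM, with a median log2 difference of -0.20 over all 11 (0.16 without a covariate, 0.09 with thinned nuclei, 0.23 in starburst-like nuclei only). Horizontal cell markers (5 of 8 tested) summed to 128 CPM against 120, 162 and 217 CPM, led by *Tpm3* at 45.4 CPM, with *Sept4* at 0 in the control and a median of 0.08 (-0.11 without CKO 1, -0.06 without CKO 2, -0.15 without mixed subclusters). Ganglion cell markers (7 of 10 tested) summed to 38.0 CPM against 29.0, 35.9 and 68.7 CPM, with *Pou4f3* and *Isl2* at 0 and a median of -0.09 (0.25 with the kit in place of the batch, 0.07 without a covariate and without mixed subclusters), and their most abundant gene, *Rbpms*, was at 11.2 CPM against 745 CPM in ganglion cell nuclei. Immune markers (6 of 12 tested) summed to 57.9 CPM against 43.1, 45.5 and 55.3 CPM, with *C1qb*, *Tmem119* and *Cd74* at 0 and a median of -0.06 (0.09 with the kit, 0.18 without CKO 1). Astrocyte markers (5 of 7 tested) summed to 27.6 CPM against 18.9, 33.4 and 42.9 CPM, led by *Igf1* at 10.8 CPM, with a median of 0.08 (-0.13 without CKO 3). Vascular markers (5 of 12 tested) summed to 40.0 CPM against 28.8, 49.7 and 78.0 CPM, led by *Kdr* at 16.4 CPM. *Cldn5* and *Kcnj8* were at 0 in the control. The median was -0.30 (0.22 with the kit, 0.17 without a covariate, 0.73 in starburst-like nuclei only). Over all alternatives the astrocyte median ranged from -0.13 to 4.33. That of immune markers ranged from -0.68 to 0.18, and that of vascular markers from -1.17 to 0.73. Called genes again numbered 0 in each list, and an unadjusted p under 0.05 was reached by *Sncg* of ganglion cells and *Gfap* of astrocytes alone. The immune sum was higher in the control than in all 10 CKO libraries, and for the other 9 lists the control lay inside the CKO range. Their part in the results was not tested.

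The share of GABA_AC nuclei among all retinal nuclei in the control lay within the range of the CKO libraries. They were 993 of 11513 nuclei in the control, or 8.63% (exact binomial 95% interval from 8.12 to 9.15, for the error of counting alone). The CKO share was 8.67% ± 1.74 (SD, n = 11), with 5.56%, 8.65% and 11.0% as lowest, median and highest. The groups overlapped, with 6 of 11 CKO libraries above the control. CKO 4, with only 9 GABA_AC nuclei among 104, was among them, and its 8.65% was the median. The difference of 0.0400 percentage points had p = 0.917 in a two-sided exact permutation test over libraries, in which 1 library against 11 cannot give less than 0.0833. The kit went with the share, since the v5 libraries CKO 8 to 11 had between 5.56% and 7.39%, all below the control. Among libraries of the control's kit, an alternative chosen after seeing the data, the difference was 1.13 points, with 6 of 7 CKO libraries above the control (exact permutation p = 0.5, smallest possible 0.125). Within batch 1 the CKO share was 9.78% ± 0.386 (SD, n = 3), 1.16 points above the control in 3 of 3 libraries (exact permutation p = 0.25, the smallest possible). Batches 2 and 3 held CKO libraries only. Among nuclei of the amacrine labels the control's share was 53.2%. The CKO libraries were at 46.4%, 51.5% and 81.8% as lowest, median and highest, with 2 of 11 above the control. The highest was CKO 4, with 9 GABA_AC and 2 Gly_AC nuclei. Among nuclei not labeled rods, 1 of 11 CKO libraries was above the control. In CKO 4, which had 0 rods, the share with rods left out was also 8.65%, the lowest of the CKO libraries. With rods left out of the denominator the difference turned to -3.07 points, from 20.3% in the control to 17.2% ± 3.46 in the CKO libraries (p = 0.333 by the same exact test).

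The transcriptome of GABA_AC nuclei showed 1 gene past the threshold between the genotypes. The long noncoding RNA *Gm17167* was lower in the CKO libraries, and 0 genes were higher. Genes of GABA synthesis, synaptic transmission, excitability and amacrine identity were not called. At an unadjusted p under 0.05, 147 genes (1.05%) were higher and 94 (0.669%) lower in the CKO libraries. DESeq2 called 0 genes higher and 1 lower, with 135 and 59 at the unadjusted level. The intervals of 7648 genes (54.4%) lay within 1 log2 unit of 0, which is the precision that 1 control library allowed. Without regard to a test, 851 genes (6.05%) were lower in the control than in all 10 CKO libraries and 462 (3.29%) were higher in it than in all 10, and the median log2 difference over all genes was 0.01.

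*Gm17167* lies on chromosome 4 (GRCm39, 42206998 to 42235313) on the plus strand, and the sources used here give no function for it. It was at 68.7 CPM in the control, from 381 UMIs, and at 13.0, 17.9 and 21.2 CPM in the lowest, median and highest CKO library. The groups did not overlap, and all 10 CKO libraries, those high and those low in *Xist* alike, were below the control. On the log2 scale *Gm17167* fell by 1.97 (standard error 0.23, 95% interval -2.45 to -1.48, adjusted p = 0.00330 from edgeR's quasi-likelihood test with Benjamini-Hochberg adjustment). With each nucleus thinned to 1000 UMIs the log2 difference was -1.76 and no longer passed (adjusted p = 0.774), and over all alternatives the adjusted p ranged from 5.05e-08 to 1.00.

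The annotation places 5 other genes across *Gm17167*, of which 1, the lncRNA *Gm21980*, is on the other strand. Of these 5, only *Gm21980* was in the count table, with 0 UMIs in GABA_AC nuclei, and 3 were annotated as pseudogenes. The sources used here do not give how the counting treated the strand or reads that match several places, so which transcript the UMIs come from is uncertain. *Gm17167* lies 5.12 Mb from *Tgfbr1* on the same chromosome. Of the 50 tested genes between them, 0 were called by edgeR or DESeq2 and 0 had an unadjusted p under 0.05. Their median log2 difference was -0.04, and the extremes were -0.67 and 0.61. The control was above all 10 CKO libraries for 3 of them and below all 10 for 2, beside 3.29% and 6.05% over all genes.

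The same direction was seen for *Gm17167* in other cell types of these libraries, which share the 1 control. In Gly_AC nuclei it was at 53.2 CPM in the control and between 6.95 and 25.3 CPM in the CKO libraries, and in ganglion cells at 47.4 CPM against 8.14 to 20.8 CPM. In rods it was at 141 CPM against 20.1 to 52.9 CPM, and in Müller glia at 262 CPM against 28.5 to 51.5 CPM. The groups did not overlap in any of the 10 cell types in which the control had UMIs of the gene. Astrocytes had 0 control UMIs of 31274, too few to tell. The difference in GABA_AC nuclei was not shown to differ from that in Gly_AC nuclei (-0.34 between them, interval -0.95 to 0.27) or in ganglion cells (-0.30, interval -0.95 to 0.34).

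**Figure D2:**
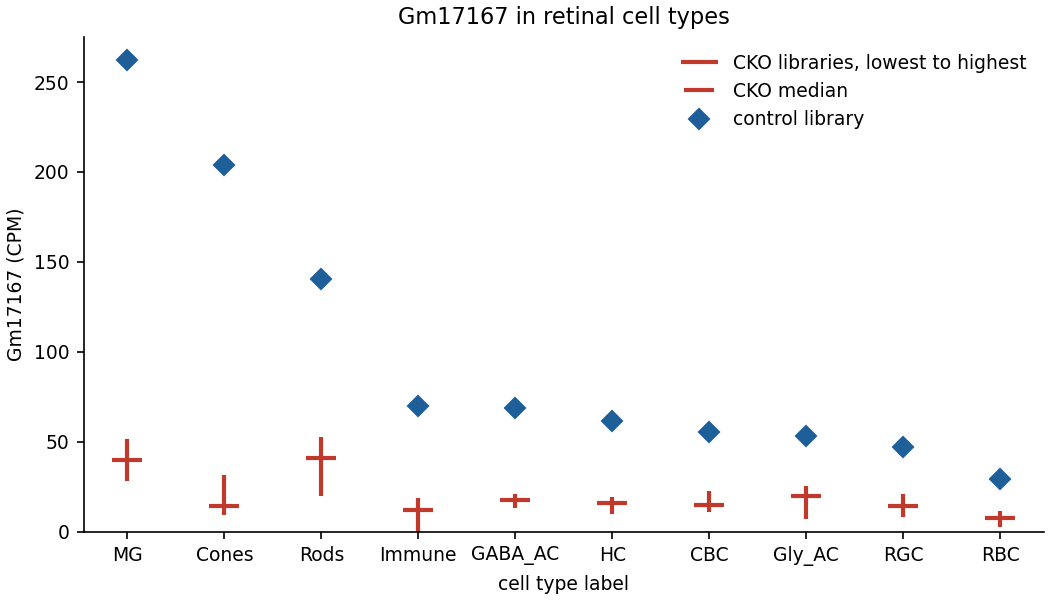
CPM of *Gm17167* in nuclei of each labeled cell type, for the control library (diamond) and the CKO libraries (line from lowest to highest, bar at the median); astrocytes, with 0 control UMIs, are not drawn. The control was above every CKO library in each type, at 68.7 CPM against 13.0 to 21.2 CPM in GABA_AC nuclei.

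The genes closest to the threshold in the other direction did not pass, each with an adjusted p of 1.00 from edgeR's quasi-likelihood test with Benjamini-Hochberg adjustment. The lncRNA *Gm15983* was at 2.34 CPM in the control and at 6.31, 14.4 and 20.7 CPM in the lowest, median and highest CKO library (log2 difference 2.16, interval 1.06 to 3.26). The lncRNA *Gm26954* was at 140 CPM against 83.8, 236 and 316 CPM (0.82, interval 0.40 to 1.24), with CKO 5 alone below the control. *Ap2s1*, a subunit of the clathrin adaptor AP-2, was at 2.34 CPM against 3.50, 7.74 and 11.7 CPM (2.03, interval 0.86 to 3.21). For *Gm15983* and *Ap2s1* the groups did not overlap, on 13 control UMIs each. *Edn2*, which codes for the vasoactive peptide endothelin 2, had 0 UMIs in the control and was at 1.63, 2.97 and 8.56 CPM in the CKO libraries. No fold is given, since 3 counts of the control's total come to 0.541 CPM and counts in the CKO libraries were few. *Edn2* and *Gm15983* were also higher in most other cell types of the CKO libraries, which share the 1 control. In rods the control was at 0 and 17.9 CPM, and the CKO libraries at 8.80 to 65.4 and 60.5 to 131 CPM. *Fgf2os*, an antisense transcript that overlaps *Fgf2*, was at 0.361 CPM, from 2 control UMIs, against 1.27, 4.76 and 7.80 CPM.

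Some further genes were chosen after their values were seen, and they did not pass either. *Fgf2*, a growth factor that protects retinal neurons, was at 3.43 CPM in the control, from 19 UMIs, and at 8.90, 19.0 and 30.0 CPM in the CKO libraries (log2 difference 2.39, interval 1.02 to 3.76, unadjusted p = 0.002). Since *Fgf2os* overlaps it and the use of strand is not given, the split of UMIs between the pair is uncertain. In rods *Fgf2* was at 20.3 CPM against 76.4 to 199 CPM, and in Gly_AC nuclei at 7.35 CPM against 13.9 to 39.3 CPM. The hemoglobin genes *Hba-a1* and *Hba-a2*, which belong to red cells, were at 0.721 and 0.180 CPM in the control, and at 1.27 to 15.8 and 3.18 to 20.6 CPM in the CKO libraries. In rods they were at 0.465 and 0.697 CPM against 9.38 to 101 and 13.2 to 105 CPM. *A2m*, a protease inhibitor, was at 0.361 CPM against 1.91 to 6.31 CPM. *Atxn2l*, an RNA-binding protein of stress granules, was at 206 CPM against 73.1, 114 and 220 CPM, with a log2 difference of -0.78 (interval -1.21 to -0.36). It was below the control in 9 of 10 CKO libraries, and CKO 5 was above it.

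Genes that make, load and clear GABA showed no called difference. Here and in the lists that follow, up to 2 most abundant members are named, and others were chosen after their values were seen. In the list of 14 genes of GABA synthesis and transport, 13 were tested, 0 were called by edgeR or DESeq2, 0 had an unadjusted p under 0.05, and the median log2 difference was -0.02, beside 0.01 over all genes (0.01 with the kit, 0.02 without a covariate and without CKO 1, 0.12 in starburst-like nuclei only). *Slc12a5*, the chloride exporter that makes GABA inhibitory, was at 169 CPM against 164, 186 and 242 CPM (0.00, interval -0.33 to 0.33). *Abat*, which breaks GABA down, was at 62.0 CPM against 56.0, 67.0 and 82.6 CPM. In 0 of the 13 genes did the control lie outside the CKO range. The 7 glycinergic markers were all tested, with 0 called, 0 at the unadjusted level and a median of 0.03 (-0.14 in batch 1 only, -0.01 without the count filter and with thinned nuclei, -0.29 without CKO 2). Of these, *Slc6a5* was higher in the control than in all 10 CKO libraries (beside 3.29% over all genes), at 62.0 CPM against 31.0, 44.2 and 57.5 CPM, with a log2 difference of -0.30 (interval -0.82 to 0.21). *Neurod2*, another of these markers, was lower in the control than in all 10 (beside 6.05%), at 0.901 CPM against 1.22 to 6.38 CPM. *Tcf4*, a transcription factor, was at 337 CPM against 274, 384 and 472 CPM. Over all alternatives the median of the 7 glycinergic markers ranged from -0.29 to 2.36.

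Receptors for GABA, glycine and glutamate also stayed short of the threshold. All 23 genes for GABA and glycine receptors were tested, with 0 called by edgeR or DESeq2, 0 at the unadjusted level, a median of -0.02 (0.11 in starburst-like nuclei only) and 18 intervals within 1 log2 unit. *Gphn*, which codes for the scaffold gephyrin, was at 971 CPM in the control and at 967, 1056 and 1169 CPM in the CKO libraries (0.06, interval -0.25 to 0.36). Of 24 glutamate receptor genes, 0 were called by either tool, 0 reached the unadjusted level and 21 intervals lay within 1 log2 unit, with a median of -0.06 (0.14 in starburst-like nuclei only). The AMPA receptor subunit *Gria4* was at 2419 CPM against 1934, 2152 and 2732 CPM, and the metabotropic receptor *Grm7* at 2184 CPM against 1769, 1913 and 2565 CPM. The control was above all 10 CKO libraries for 2 of the 24 and below all 10 for 3, *Grik3*, *Grin2d* and *Grm4*, beside 3.29% and 6.05% over all genes. *Grik3*, a kainate receptor subunit, was at 13.3 CPM against 17.7, 29.3 and 47.9 CPM, with a log2 difference of 0.77 (interval -0.01 to 1.54).

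The genes of excitability, transmitter release and synaptic adhesion had intervals mostly within 1 log2 unit of 0, and 0 of them were called by edgeR or DESeq2 or reached an unadjusted p under 0.05. Of 33 voltage-gated channel genes, all tested, 30 had intervals within 1 log2 unit and the median was -0.05 (0.02 in starburst-like nuclei only). *Kcnip4*, a subunit of A-type potassium channels, was at 2942 CPM in the control and at 1712, 2792 and 3296 CPM in the CKO libraries (0.01, interval -0.75 to 0.76). The control was below all CKO libraries for 1 of the 33, beside 6.05% over all genes: the sodium channel *Scn8a* was at 229 CPM against 237 to 269 CPM, with a log2 difference of 0.14 (interval -0.14 to 0.42). Of 27 genes of vesicle release, 24 had such intervals and the median was -0.01 (0.02 to 0.08 in 7 alternatives), with the calcium sensor *Syt1* at 4635 CPM against 3444, 4375 and 5301 CPM. *Snap25*, a SNARE protein, was at 1847 CPM against 1384, 1972 and 2200 CPM. Of 44 adhesion genes, 42 had such intervals and the median was -0.04, a sign it kept. *Nrxn3*, a presynaptic neurexin, was at 9571 CPM against 5847, 8758 and 10430 CPM, and the protocadherin *Pcdh9* at 5140 CPM against 3226, 4180 and 5330 CPM. The control was above all CKO libraries for 3 of the 44, *Nlgn1*, *Dcc* and *Unc5d*, and below all for 1, *Sdk2*, beside 3.29% and 6.05% over all genes.

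Transcription factors and transmitters that mark subtypes were compared next. Of 38 subtype factors, 35 were tested, with 0 called by edgeR or DESeq2, 0 at the unadjusted level and a median of -0.03 (0.01 with the kit). The nuclear receptor gene *Rorb* was at 1750 CPM in the control, inside the CKO range of 1449 to 1860 CPM. Of 10 starburst genes, 8 were tested, with 0 called by either tool, 0 at the unadjusted level and a median of 0.16 (-0.14 in starburst-like nuclei only). Positive log2 differences were seen for 8 of the 8, beside 7254 of 14060 over all genes. *Chat* was at 83.8 CPM against 75.0, 99.4 and 109 CPM, above the control in 9 of 10 CKO libraries, with a log2 difference of 0.23 (interval -0.11 to 0.57). The choline transporter *Slc5a7* was at 47.2 CPM against 36.9, 55.7 and 63.4 CPM, the engulfment receptor *Megf11* at 283 CPM against 221, 305 and 383 CPM and the LIM factor *Isl1* at 125 CPM against 111, 137 and 176 CPM. *Megf10*, which spaces starburst cells, was at 37.7 CPM against 27.7, 84.0 and 128 CPM, with a wide interval from -0.65 to 2.75. Of 5 dopaminergic genes, 2 were tested, with 0 called, 0 at the unadjusted level and a median of -0.31 (0.18 with thinned nuclei). *Nr4a2* was at 23.8 CPM against 9.01, 20.7 and 27.6 CPM (-0.67, interval -1.44 to 0.09), the vesicular monoamine transporter *Slc18a2* at 8.47 CPM against 6.99, 8.49 and 11.7 CPM, and *Th*, which makes the dopamine precursor, had 2 control UMIs.

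Of 18 neuropeptide genes, 7 had enough UMIs to be tested, with 0 called by edgeR or DESeq2, 0 at the unadjusted level and a median of 0.18 (-0.15 with the kit, -0.11 with thinned nuclei, -0.06 without CKO 1). *Cartpt*, which codes for the CART peptide, was at 78.1 CPM in the control and at 21.5, 46.5 and 69.0 CPM in the lowest, median and highest CKO library. The control was above all 10 for this 1 of the 7 genes, beside 3.29% over all genes, and the log2 difference of -0.78 had an interval from -1.92 to 0.36. *Npy*, for neuropeptide Y, was at 26.5 CPM against 13.97, 23.9 and 43.2 CPM, and *Tac1*, for substance P, at 14.2 CPM against 11.7, 15.5 and 26.0 CPM. *Vip* was at 11.0 CPM against 2.54, 11.6 and 23.6 CPM, *Nmb* at 6.13 CPM against 3.81, 5.19 and 7.17 CPM, *Tac2* at 4.33 CPM against 0.318, 5.81 and 7.65 CPM and *Pdyn* at 1.44 CPM against 0.407, 2.36 and 4.25 CPM. The control was inside the CKO range for each of them. The other 11, among them *Sst*, *Penk*, *Crh* and *Gal*, had too few UMIs, and *Cck*, *Nppb*, *Ghrh* and *Nts* had 0 UMIs in the control, where 3 counts come to 0.541 CPM.

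Genes of hypoxia and glycolysis lay on the higher side in the CKO libraries without any of them passing the test. Of 37 listed genes, 32 were tested, with 0 called by edgeR or DESeq2, 1 higher at an unadjusted p under 0.05 and 29 of 32 log2 differences positive, beside 7254 of 14060 over all genes. The median log2 difference was 0.26, beside 0.01 over all genes, and it ranged from 0.16 to 0.32 over all alternatives. Summed over the list, the control was at 2011 CPM and the CKO libraries at 2183, 2517 and 2784 CPM, so the groups did not overlap. Among the 29 lists, the control's sum also lay outside the CKO range for the interferon, immune and sex-linked lists. These sums were not tested. For 9 of the 32 genes the control was below all 10 CKO libraries, beside 6.05% over all genes. *Pfkp*, a phosphofructokinase of glycolysis, was at 490.2 CPM against 451, 634 and 764 CPM, with a log2 difference of 0.48 (interval 0.08 to 0.89, unadjusted p = 0.023). *Ldha*, which makes lactate, was at 49.8 CPM against 30.8, 75.7 and 126 CPM (0.50, interval -0.01 to 1.01). *Hif1a*, the hypoxia-inducible factor, was at 260 CPM against 194, 259 and 328 CPM (0.20, interval -0.36 to 0.76).

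Members of this list named after their values were seen include *Vegfa*, the vessel growth factor, at 58.6 CPM against 60.4, 66.5 and 95.0 CPM, with a log2 difference of 0.08 (interval -0.34 to 0.49). *Hk2*, a hexokinase, was at 24.0 CPM against 26.9, 33.9 and 88.6 CPM (0.95, interval -0.77 to 2.67), and *Aldoa*, an aldolase, at 14.1 CPM against 22.4, 33.8 and 85.4 CPM (0.98, interval -0.24 to 2.20). *P4ha1*, a prolyl hydroxylase of collagen, was at 96.1 CPM against 99.6, 114 and 143 CPM, and the histone demethylase *Kdm3a* at 73.6 CPM against 77.3, 95.9 and 112 CPM. For each of these genes the control was the lowest library. In the same nuclei the cone, cone bipolar, rod bipolar and rod markers had positive medians of 0.57, 0.45, 0.33 and 0.17, of which the last and the rod bipolar median turned under an alternative. *Pfkp* was at 497 CPM in the control and at 1111 CPM in the median CKO library in cone bipolar cells, and at 400 and 1194 CPM in rod bipolar cells. In Gly_AC nuclei the control was inside the CKO range, at 499 CPM against 435 to 817 CPM. The same held in ganglion cells, at 677 CPM against 496 to 890 CPM. The part of RNA from rods, cones and bipolar cells in the list was not tested. Without the nuclei of subclusters with raised markers of at least 2 other cell classes, an alternative chosen after seeing the data, the median of the list was 0.19.

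The lists of signaling and stress are next. In the list of interferon and MHC class I genes, 14 of 36 were tested, with 0 called by edgeR or DESeq2 and 1 higher at the unadjusted level. *Tapbp*, a chaperone of MHC class I loading, was at 1.26 CPM against 2.70, 4.53 and 8.11 CPM (1.63, interval 0.30 to 2.97, unadjusted p = 0.020). *Stat2* was at 33.7 CPM against 27.0, 31.5 and 42.9 CPM. Summed over the list, the control was at 79.7 CPM and the CKO libraries at 81.0, 104 and 115 CPM, again without overlap. The median of the list was 0.41, but -0.29 with nuclei thinned to 1000 UMIs, and 5 genes, *Ifit1*, *Ifit3*, *Bst2*, *Gbp3* and *Gbp7*, had 0 UMIs in the control. Of 20 immediate early genes, 13 were tested, with 0 called by either tool, 0 at the unadjusted level and a median of 0.17 (-0.16 with thinned nuclei, -0.02 without CKO 2, -0.09 in starburst-like nuclei only). *Fos*, *Junb* and *Jund*, 3 of the 13, were lower in the control than in all CKO libraries, beside 6.05% over all genes, with *Fos* at 1.08 CPM against 1.91, 5.18 and 11.7 CPM (1.77, interval -0.02 to 3.55), while *Homer1* was at 74.5 CPM against 64.9, 73.8 and 112 CPM and *Btg2* at 31.5 CPM against 17.0, 28.9 and 66.1 CPM.

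Of 30 genes of TGF-beta, BMP and SMAD signaling, 26 were tested, with 0 called by edgeR or DESeq2, 1 higher at an unadjusted p under 0.05, a median of -0.01 (0.04 to 0.12 in 4 alternatives) and 20 intervals within 1 log2 unit. *Ltbp1*, which anchors latent TGF-beta in the matrix, was at 23.6 CPM against 24.6, 38.7 and 49.1 CPM (0.66, interval 0.00 to 1.32, unadjusted p = 0.049). The BMP receptor *Bmpr1a* was at 140 CPM against 88.4, 157 and 195 CPM, and the activin receptor *Acvr2a* at 124 CPM against 107, 132 and 204 CPM. *Smad7*, an inhibitor that TGF-beta signaling induces, was at 13.9 CPM against 8.36, 15.2 and 17.6 CPM. In the cell stress list, 26 of 33 genes were tested, with 0 called by either tool, 1 higher and 1 lower at the unadjusted level and a median of 0.06 that kept its sign. *Hmox1*, the stress-induced heme oxygenase, had 1 control UMI, at 0.180 CPM against 0.929, 3.02 and 6.89 CPM, and *Gap43*, a growth cone protein, was at 63.5 CPM against 38.8, 59.4 and 67.7 CPM (-0.48, unadjusted p = 0.026). The chaperones *Hsp90b1* and *Hsp90aa1* were inside the CKO ranges at 104 and 87.6 CPM. The median of the stress list ranged from 0.02 to 0.49 over all alternatives. All 27 genes of oxidative phosphorylation were tested, with 0 called by either tool, 1 higher at the unadjusted level and a median of -0.01 (0.01 to 0.27 in 4 alternatives). That gene was *Cycs*, cytochrome c, at 3.43 CPM against 3.66, 7.04 and 11.6 CPM (1.31, unadjusted p = 0.018), and *Ndufs4* and *Sdha* were at 170 and 123 CPM inside CKO ranges of 140 to 188 and 104 to 128 CPM.

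**Figure D3:**
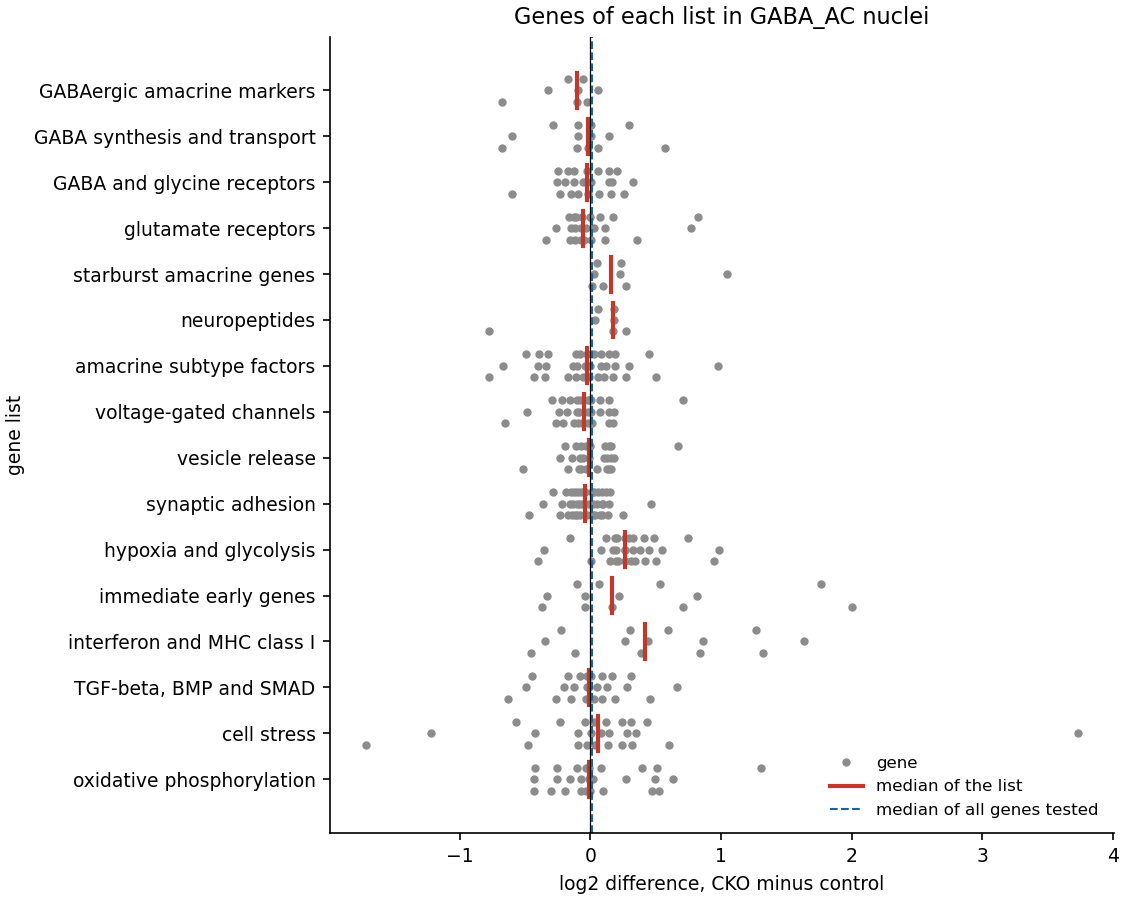
Log2 difference (CKO minus control) of each tested gene (points) of 16 gene lists in GABA_AC nuclei, with the median of each list (bar) and of all 14060 genes tested (dashed line at 0.01). The hypoxia and glycolysis list had a median of 0.26 with 29 of 32 genes above 0, and 0 genes of these lists were called.

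The GABA_AC nuclei were divided into 38 subclusters for description, from 6579 nuclei with at least 500 UMIs, of which 965 were from the control. The genes that lead a cluster were found from the same nuclei and carry no test. A cluster of 102 nuclei was led by *Vip*, at 531 CPM inside and 2.73 CPM outside it, and held 1.45% of control nuclei against 0.902%, 1.53% and 2.73% in the lowest, median and highest CKO library. A cluster of 186 nuclei was led by *Cartpt*, at 1679 CPM inside and 11.2 CPM outside, with 2.90% of control nuclei against 1.26%, 2.49% and 4.63%. Others were led by *Tac2* and *Eomes* (142 nuclei), by *Svep1* with *Npy* among the leading genes (118 nuclei), and by the transcription factor *Maf* (343 nuclei). In 36 of the 38 clusters the control's share lay inside the range of the 10 CKO libraries, and in 0 was it below all. It was above all in 2, a cluster of 211 nuclei led by *Elavl2* (4.15% against 1.80% to 3.86%) and one of 318 nuclei led by *Tshr* and *Olfm3* (5.91% against 1.93% to 5.73%). These shares were not tested.

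Starburst-like clusters, which had at least 5 raised markers of the starburst list and fewer than 3 of any other cell class, were 2 and held 699 nuclei (10.6%). *Chat* was at 443 and 689 CPM inside them and at 76.7 and 56.3 CPM outside. They made up 96 of 965 nuclei in the control, or 9.95%, and 6.75%, 11.2% and 12.8% in the lowest, median and highest CKO library. The control lay inside this range, with 8 of 10 CKO libraries above it. A further 2 clusters with 685 nuclei (10.4%) carried at least 3 raised markers in each of at least 2 other cell classes. One, of 390 nuclei at a median of 13570.5 UMIs per nucleus, had raised rod, cone, bipolar and Müller glia markers, with the bipolar cell gene *Trpm1* among its leading genes. The other, of 295 nuclei at a median of 1826 UMIs, had 3 raised rod and 5 raised cone markers. These mixed clusters held 8.08% of control nuclei and 4.08%, 11.4% and 18.3% in the CKO libraries, above the control in 9 of 10. With their nuclei and those under 500 UMIs left out, an alternative chosen after seeing the data, *Gm17167* had a log2 difference of -1.89 and missed the threshold (adjusted p = 0.0979, within a range over alternatives from 5.05e-08 to 1.00), and 0 genes were called by edgeR, with 97 higher and 76 lower at an unadjusted p under 0.05.

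The response of GABA_AC nuclei was compared with that of glycinergic amacrine nuclei of the same libraries, to see where the genotype difference itself differed. Of 14462 genes, 4 (0.0277%) differed in edgeR's interaction test, all with a lower CKO minus control difference in GABA_AC than in Gly_AC nuclei, and 275 higher and 367 lower had an unadjusted p under 0.05. *Ak5*, an adenylate kinase of neurons, was at 71.7 CPM in the control's GABA_AC nuclei against 62.3, 77.9 and 99.4 CPM in the CKO libraries, but at 12.2 CPM in the control's Gly_AC nuclei against 74.8, 134 and 165 CPM. The control was inside the CKO range in GABA_AC nuclei and below all CKO libraries in Gly_AC nuclei. The difference between the responses was -2.86 on the log2 scale (interval -3.52 to -2.21, adjusted p = 0.000194 from edgeR's quasi-likelihood test with Benjamini-Hochberg adjustment). Separate fits of each cell type, which need not add up to it, gave 0.17 in GABA_AC and 3.10 in Gly_AC nuclei. In Gly_AC nuclei alone that difference did not pass (adjusted p = 0.112 by the same test).

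The other 3 genes had the same form. *Nav2*, a neuron navigator, was at 54.1 CPM against 39.5, 46.4 and 61.6 CPM in GABA_AC nuclei and at 23.8 CPM against 45.3, 73.3 and 106 CPM in Gly_AC nuclei, a difference of -1.52 (interval -2.04 to -0.997, adjusted p = 0.0139). *Tpm1*, a tropomyosin of the actin cytoskeleton, was at 116 CPM against 101, 119 and 132 CPM and at 64.5 CPM against 147, 216 and 328 CPM, a difference of -1.44 (-1.93 to -0.94, adjusted p = 0.0388). *Grik4*, a kainate receptor subunit, was at 95.7 CPM against 65.4, 87.4 and 117 CPM and at 25.4 CPM against 52.3, 74.4 and 97.2 CPM, a difference of -1.31 (-1.81 to -0.81, adjusted p = 0.0405). In each, the control lay inside the CKO range in GABA_AC nuclei and below it in Gly_AC nuclei. Over 14 alternatives the call was lost in 2 for *Nav2*, 6 for *Tpm1* and 7 for *Grik4*. Among these were the fits without CKO 3 for *Nav2* and *Grik4*, and without CKO 11 for *Grik4*. In both of these fits as many genes passed as in the main fit. *Csgalnact1*, an enzyme of chondroitin sulfate synthesis, did not pass at -2.10 (adjusted p = 0.0508), with 207 CPM against 174 to 273 CPM in GABA_AC and 7.35 CPM against 28.9 to 67.6 CPM in Gly_AC nuclei. These adjusted p are from edgeR's quasi-likelihood test with Benjamini-Hochberg adjustment. The control level in Gly_AC nuclei was thus the value that stood apart, from 1 library, and the count of 4 was 1 without CKO 1, 2 without CKO 2, CKO 5 or CKO 10, and 8 without CKO 6. It was 2 with RLE size factors, where *Tpm1* and *Grik4* were lost, 3 with the kit in place of the batch, where *Tpm1* was lost, and 9 in batch 1 only.

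Against ganglion cells, the other neurons of the ganglion cell layer, 1 of 14645 genes (0.00683%) differed in response, with 237 higher and 271 lower at an unadjusted p under 0.05. *Pdzrn4*, which codes for a protein with PDZ and RING domains, was at 64.0 CPM in the control's GABA_AC nuclei and at 60.7, 114 and 177 CPM in the CKO libraries. In ganglion cells it was at 66.8 CPM against 36.4, 54.7 and 116 CPM. The control was inside the CKO range in both, near its low end in GABA_AC nuclei. The difference between the responses was 1.62 (interval 1.14 to 2.09, adjusted p = 0.00141 from edgeR's quasi-likelihood test with Benjamini-Hochberg adjustment). Separate fits gave 1.03 in GABA_AC nuclei and -0.64 in ganglion cells. With the kit in place of the batch it was 1.31 and did not pass (adjusted p = 1.00, the highest over its alternatives, of which the lowest was 0.000327). *Ephb1*, *Ntng1*, *Bsg* and *Slc24a4* followed at 0.77, 0.79, -1.16 and -1.04 and did not pass.

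**Figure D4:**
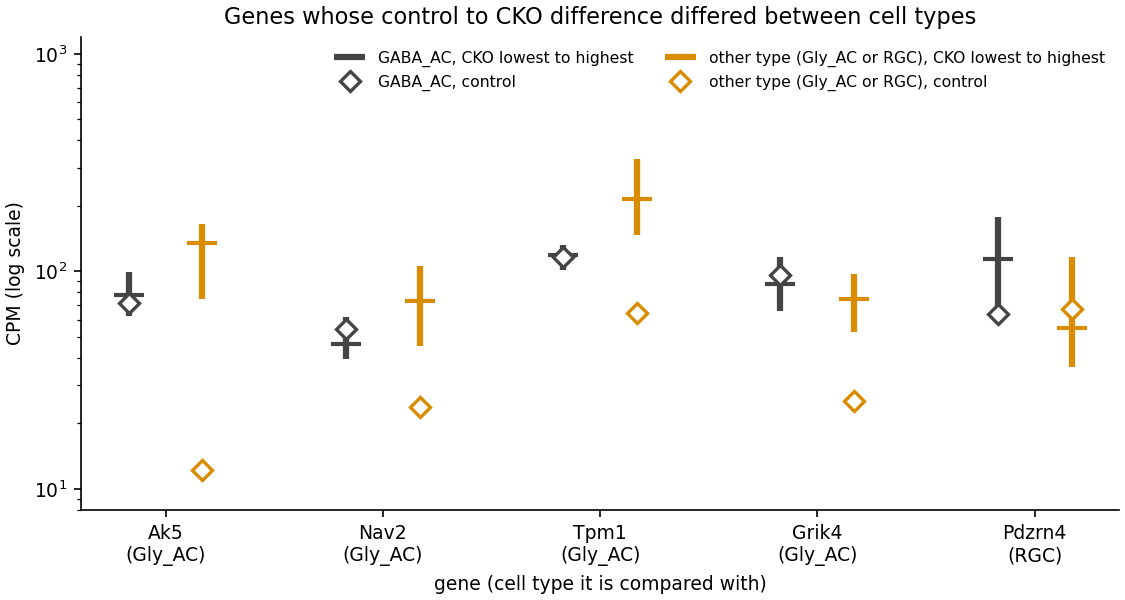
CPM (log scale) of the 5 genes whose control to CKO difference differed between GABA_AC nuclei (dark) and the other type named under each gene (orange), with the control as an open diamond and the CKO libraries as a line from lowest to highest with a bar at the median. *Ak5* was at 71.7 CPM against 62.3 to 99.4 CPM in GABA_AC and at 12.2 CPM against 74.8 to 165 CPM in Gly_AC nuclei.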

How the data were processed

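The authors deposited counts, UMIs per gene and nucleus, and these counts were used as given. The authors counted with PIPseeker on GRCm39, removed background with CellBender and doublets with SOLO, and curated clusters by hand, which removed clusters with multiple nuclei from CKO 4 and 5. In the sample table made for this report, the days of 4-hydroxytamoxifen of the control, 3 and 5, were filled in from the study design, which names them for mutant mice only, and no source gives them for the control. The submitters' processing notes name Seurat, which the paper also used, and the build mm10. Not all batches were counted on the same gene annotation. The count table held 28316 genes, of which 24645 were in both annotations, and only these were open to testing. CPM ranges over the CKO libraries span both annotations, for lncRNAs such as *Gm17167*, *Gm15983* and *Gm26954* too. The part of the annotation in these ranges was not tested. Cell barcodes shared between libraries were 10 of 77666 overall and 0 of 6894 in GABA_AC nuclei.

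UMIs were summed over the GABA_AC nuclei of each library with at least 20 of them. Genes were tested with edgeR 4.0.16 (TMM, quasi-likelihood, batch as covariate, R 4.3.3) at an adjusted p of 0.05, with DESeq2 1.42.0 as an alternative. The interaction fits took GABA_AC with Gly_AC or ganglion cell sums, with the library as a block. The single control was assumed to vary like the CKO libraries, and p-values measure only the spread between libraries. CPM divides by all UMIs of the GABA_AC nuclei of a library. Shares were compared by exact permutation over libraries.

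Subclusters came from scanpy 1.11.5 and leidenalg 0.10.2, on nuclei with at least 500 UMIs, with 2000 variable genes, 20 principal components, 15 neighbors and resolution 1. A marker counted as raised at 2 times its CPM outside. Mixed clusters had at least 3 raised markers in each of at least 2 other cell classes.

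Named genes were the 10 of smallest p in each direction past the threshold, or 5 where none passed, the label markers, up to 4 members of a list past the threshold and its 2 most abundant, subtype and neuropeptide markers by level, 5 genes of each interaction test, *Tgfbr1*, *Xist* and Y-linked genes. Some genes that this rule names are not reported here, while list counts, medians and sums include them. The 29 gene lists and their members were chosen with earlier results of these data known. The fits were tried before use on simulated counts, with the same spread for all genes and no differences between batches or kits. Such counts cannot show how a property of the single control library affects the fits.

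Alternatives were the kit in place of the batch, no covariate, batch 1 only, DESeq2, RLE size factors, no count filter, nuclei with at least 1000 UMIs, at least 50 nuclei per library, nuclei thinned to 1000 UMIs, totals without other cell types' markers, no CKO 4 and 5, and each CKO library left out. Added after seeing the data were fits without mixed subclusters, fits on starburst-like nuclei only, the share within the control's kit, and the starburst-like share at resolutions 0.5 and 2.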

Additional observations from a re-analysis of the deposited data

Results flagged for a closer look

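A library was listed here when its value for a named gene stood far from the other CKO libraries by Dixon's test. Chance flags about 1 in 20 groups, and 7 of 66 genes looked at had such a library, of which 6 are given. *Gm26954* was at 83.8 CPM in CKO 5, with the others from 214 to 316 CPM. *Tfap2a* was at 268 CPM in CKO 5, with the others from 140 to 205 CPM. *Tfap2b* was at 689 CPM in CKO 5, with the others from 381 to 545 CPM. *Chat* was at 75.0 CPM in CKO 7, with the others from 90.8 to 109 CPM. *Fezf1* was at 3.15 CPM in CKO 11, with the others from 0.318 to 1.63 CPM. *Atxn2l* was at 220 CPM in CKO 5, with the others from 73.1 to 140 CPM.

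Genes whose control to CKO difference differed between cell types in edgeR's interaction test are also listed. Against Gly_AC nuclei these were *Ak5* at -2.86, *Nav2* at -1.52, *Tpm1* at -1.44 and *Grik4* at -1.31 on the log2 scale. Against ganglion cells this was *Pdzrn4* at 1.62.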

How the results depend on the processing

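No paired analysis was possible because no control library is matched to a CKO library by litter or animal in the sources used here. The single control could not be left out, so a property of that library cannot be told apart from the genotype.

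The share difference of 0.0400 points turned to -3.07 among nuclei not labeled rods and -1.05 with at least 1000 UMIs. It turned to -0.0433, -0.116, -0.0566, -0.198 and -0.160 without CKO 1, 2, 3, 6 and 7, and ranged from -0.198 to 0.350 over all left-out libraries.

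The count of 1 called gene became 2 in batch 1 only and 0 with thinned nuclei, without mixed subclusters and in starburst-like nuclei only. *Gm17167* had a log2 difference of -1.76 thinned, -1.89 without mixed subclusters and -3.42 in starburst-like nuclei only (adjusted p = 0.774, 0.0979 and 1.00 from edgeR's quasi-likelihood test with Benjamini-Hochberg adjustment, range over alternatives 5.05e-08 to 1.00). It passed without each CKO library in turn, from -2.08 to -1.81. *Gad2* turned to 2.82 and *Pax6* to 0.16 in starburst-like nuclei only. *Tgfbr1* turned to 0.0582 thinned, 0.12 without CKO 1 and 0.05 without CKO 3, and was -0.27 without CKO 2.

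The count of 4 genes against Gly_AC became 9 in batch 1 only, 2 with RLE size factors, 1 without CKO 1, 2 without CKO 2, 5 or 10, and 8 without CKO 6. *Ak5* passed in all. *Nav2* was lost without CKO 1 or 3, *Tpm1* with the kit, with RLE and without CKO 1, 2, 5 or 10, and *Grik4* with RLE and without CKO 1, 2, 3, 5, 10 or 11. The count of 1 against ganglion cells became 0 with the kit and 4 in batch 1 only. Subclusters numbered 24 at resolution 0.5 and 53 at 2. The causes of these changes were not tested.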
